A study of Rattus norvegicus with 21 samples.

Results

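The genes described here are the 3 transforming growth factor beta (TGF-beta) ligand genes, Tgfb1, Tgfb2 and Tgfb3, and a pair of CCN genes that respond to stretch, Ccn2 and Ccn1. They were taken by Ensembl identifier, as ENSRNOG00000020652, ENSRNOG00000002126, ENSRNOG00000009867, ENSRNOG00000015036 and ENSRNOG00000014350 in that order, and are 5 of the 32754 genes in the count table. The table holds identifiers only, so the pairing of identifier and symbol came with the selection and could not be checked here. Every value given for a symbol is that of its identifier and holds for the named gene only if the pairing is right, and a doubt about the identifier of Tgfb2 could not be settled. Bladder RNA came from male rats of the outbred Sprague Dawley strain, labelled WT and 6 to 7 weeks old at the start. The cord was transected completely at thoracic level 8 to give spinal cord injury (SCI), and these bladders were taken 2, 8 and 16 weeks later. Noninjured control bladders were taken at 0, 2, 8 and 16 weeks, and no sham operation is named for them. Each of these 7 groups holds 3 libraries, 21 in all, and the week is counted from injury, so animals of later weeks were also older. Every library is full-thickness bladder wall, which mixes smooth muscle, urothelium, fibroblasts, vessels and leukocytes. Fewer cells of a type and less RNA per cell cannot be told apart in such samples, and the markers of these cell types could not be looked up without symbols.

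TGF-beta ligands are secreted as latent complexes bound to their own propeptide and are released from them by proteases or, for some of the ligands, by integrins. The active ligand binds a pair of receptor kinases that phosphorylate SMAD2 and SMAD3, and in the bladder wall, as elsewhere, this pathway is known for driving matrix production by fibroblasts and smooth muscle. CCN2 (connective tissue growth factor) and CCN1 (CYR61) are matricellular proteins that bind integrins. Both genes are early targets of stretch, which acts through the coactivators YAP and TAZ and the DNA-binding TEAD factors, and Ccn2 is also a target of TGF-beta.

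Total counts ranged from 8087726 to 15472537 per library, with a median of 9584812. Levels are given as CPM, the counts of a gene relative to the total of its library, scaled with TMM factors (trimmed mean of M values), and means as mean ± SD of 3 libraries. All 5 genes were among the 15225 that passed a filter on low counts and were tested. A gene was called when its adjusted p in edgeR's quasi-likelihood test was under 0.05. Because no gene lengths on the build of the counts were used, levels are compared between groups and not between genes.

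The promoter windows of the CCN genes are shown because both hold the TEAD core motif, through which stretch is known to reach them. Each is the 250 bases upstream of the RefSeq gene start on assembly GRCr8, printed 5′ to 3′ on the gene's own strand, with GGAATG or its reverse complement CATTCC in capitals. Ccn2 lies on the minus strand with its window at chr1:22624615-22624864, and Ccn1 on the minus strand with its window at chr2:237225690-237225939.
Ccn2: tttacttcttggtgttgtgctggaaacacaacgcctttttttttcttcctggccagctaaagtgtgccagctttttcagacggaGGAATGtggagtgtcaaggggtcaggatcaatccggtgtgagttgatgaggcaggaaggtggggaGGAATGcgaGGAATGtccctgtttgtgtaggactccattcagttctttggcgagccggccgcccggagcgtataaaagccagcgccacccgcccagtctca
Ccn1: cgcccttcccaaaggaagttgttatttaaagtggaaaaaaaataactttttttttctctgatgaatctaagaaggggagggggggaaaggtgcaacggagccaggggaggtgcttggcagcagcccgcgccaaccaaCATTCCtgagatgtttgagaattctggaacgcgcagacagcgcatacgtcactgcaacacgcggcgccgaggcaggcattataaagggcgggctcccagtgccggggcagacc

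The Ccn2 window held 3 matches on its own strand, which begin 166, 101 and 92 bases upstream of the start. The Ccn1 window held 1 match on the opposite strand, from 113 to 108 bases upstream. Of 33469 windows of this length in the RefSeq table, 12.1% held at least 1 match on either strand and 27 (0.0807%) held 3 or more. The windows of Tgfb1, Tgfb2 and Tgfb3 held none, but those of Tgfb2 and Tgfb3, unlike the others, do not end at the outer edge of the annotated gene, so other upstream sequence of these genes was not searched. The same search for AP-1 (TGANTCA, in 6.34% of windows), the cyclic AMP response element (TGACGTCA, 1.59%), the SMAD palindrome (GTCTAGAC, 0.173%) and the CArG box bound by SRF (1.5%) found 0 matches in all 5 windows. These are matches of letters only and were not tested for binding.

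SCI was compared with control at each week and over the weeks together. At 2 weeks, 0 of the 5 genes were called, against 0% of the genes tested, and none had an unadjusted p under 0.05, against 6.67%. At 8 weeks, Tgfb2 alone was called, and it was lower after SCI, where 8.41% of genes were called and 5.14% were called lower. At 16 weeks, Tgfb1 alone was called, also lower, where 5.62% were called and 3.24% were called lower. In the mean of the 3 weeks, Tgfb2 and Tgfb3 were called, both lower, where 22.7% of genes were called and 12.3% were called lower. The median log2 fold change of the 5 genes was 0.003, -1.94 and -0.46 at 2, 8 and 16 weeks, and over all genes tested it was 0.002, 0.003 and -0.02. An unadjusted p under 0.05 was met by 4 of the 5 at 8 weeks (28% of genes), 2 at 16 weeks (26.6%) and 3 in the mean of the weeks (37.5%). At 2 weeks the median was 0.19 and 1 of the 5 had an unadjusted p under 0.05 when control 2 weeks replicate 3 was left out. Without control 8 weeks replicate 1 the median at 8 weeks was -0.53 and the count 1 of 5, and without replicate 1 of the 8-week SCI bladders the count was 2. At 16 weeks the count was 1 without replicate 1 of the controls and 3 without SCI replicate 2, and in the mean of the weeks it was 2 or 3 in every fit that left out 1 library. The share of all genes with an unadjusted p under 0.05 was not taken in these fits. Over all genes, the number called at 8 weeks was 541 without control replicate 1 and 32 without SCI replicate 1, against 1281 in the main fit. At 16 weeks it was 19 without control replicate 1 and 104 without SCI replicate 2, against 855. The labels list separate animals and place all of them in batch 1. The adjusted p rests on the spread between libraries within groups, pooled over all 7 groups (14 residual degrees of freedom), not on the compared groups alone.

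**Figure D1:**
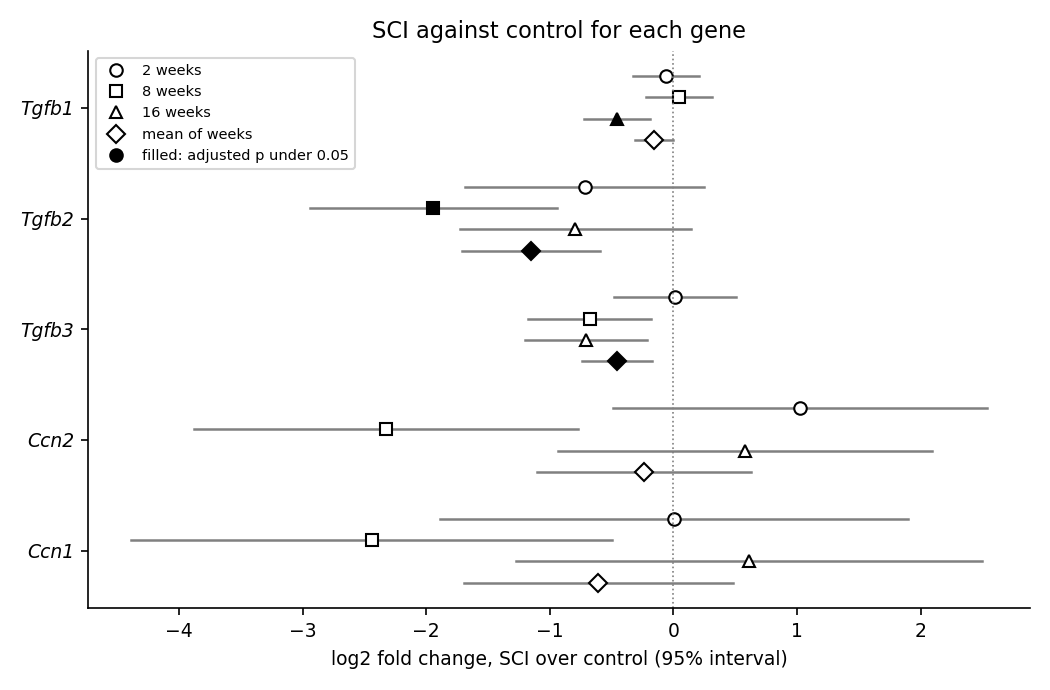
Log2 fold change of SCI over control (horizontal axis) for each gene, with its 95% interval as a line, at 2, 8 and 16 weeks and for the mean of the weeks; filled symbols have an adjusted p under 0.05. The intervals of Ccn2 and Ccn1 are the widest, and the filled symbols are Tgfb1 at 16 weeks (-0.46), Tgfb2 at 8 weeks (-1.94) and Tgfb2 (-1.15) and Tgfb3 (-0.46) in the mean of the weeks.

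Tgfb2, the ligand gene with the fewest reads of the 3, was lower in SCI bladders. Control libraries held 1.43, 1.66 and 2.13 CPM at 2 weeks, 2.48, 2.75 and 2.59 CPM at 8 weeks and 1.79, 2.05 and 2.62 CPM at 16 weeks, and the 0-week controls held 1.45, 2.94 and 2.12 CPM. SCI libraries held 0.507, 1.55 and 1.11 CPM at 2 weeks, 0.601, 0.764 and 0.684 CPM at 8 weeks and 0.234, 1.79 and 1.62 CPM at 16 weeks. At 8 weeks every SCI library lay below every control, as in 14.7% of genes tested, while at 2 weeks and at 16 weeks the highest SCI library lay above the lowest control of its week. The mean fell from 2.61 ± 0.136 CPM in controls to 0.683 ± 0.0817 CPM after SCI at 8 weeks (log2 difference -1.94, SE 0.48, adjusted p = 0.0241). The differences at 2 weeks (-0.72, SE 0.46, adjusted p = 0.881) and 16 weeks (-0.79, SE 0.44, adjusted p = 0.259) were not called. In the mean of the weeks, Tgfb2 was 2.22-fold lower after SCI (log2 fold change -1.15, 95% interval -1.71 to -0.59, adjusted p = 0.00657). An exact two-sided permutation of SCI and control labels within weeks, over 8000 arrangements, gave p = 0.001 for the mean difference in log2 CPM, where 0.00025 is the smallest p possible. The change in the SCI difference from 2 to 8 weeks was not called in a test of the change itself (log2 -1.22, 95% interval -2.64 to 0.19, adjusted p = 0.618).

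These levels rest on few reads. The 8-week controls held 21, 24 and 23 Tgfb2 reads and the 8-week SCI libraries 7 each, and the exact Poisson 95% intervals of the nearest pair, up to 1.57 CPM in SCI replicate 2 and from 1.54 CPM in control replicate 1, just met. SCI 16 weeks replicate 1 held 2 reads, and its exact Poisson 95% interval of 0.0284 to 0.846 CPM lies below the intervals of both other SCI libraries of that week, 1.06 to 2.83 and 0.884 to 2.71 CPM. Intervals of this kind cover counting error only. The 8-week call was lost without SCI 8 weeks replicate 1 (adjusted p = 0.121), without replicate 3 of that group (0.0946) or without control 8 weeks replicate 2 (0.0601), and the log2 fold change then lay between -1.94 and -1.85. Without SCI 16 weeks replicate 1 the 16-week difference was -0.33, and without replicate 2 of that group -1.21 (unadjusted p = 0.0336, adjusted p = 0.169). The 2-week difference was -0.37 without SCI 2 weeks replicate 1 and -1.11 when replicate 2 of that group was left out (adjusted p = 1.00 and 0.633).

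Tgfb3 was lower after SCI in the mean of the weeks, and at 2 weeks its SCI libraries lay within the range of the controls. Controls held 55.4, 59.4 and 79.5 CPM at 2 weeks, 98.2, 80.6 and 68.6 CPM at 8 weeks and 103.3, 73.4 and 69.4 CPM at 16 weeks. SCI libraries held 56.8, 79.5 and 59.6 CPM at 2 weeks, 39.4, 62.5 and 53.0 CPM at 8 weeks and 55.0, 45.8 and 50.4 CPM at 16 weeks. The groups overlapped at 2 weeks and not at 8 or 16 weeks, when every SCI library lay below every control, as in 14.7% and 18.3% of genes tested. The 0-week controls held 42.9, 86.4 and 61.2 CPM, a range that takes in every SCI library except that of 39.4 CPM. The log2 fold changes were 0.01 (SE 0.23, adjusted p = 0.998) at 2 weeks, -0.68 (SE 0.24, adjusted p = 0.0764) at 8 weeks and -0.71 (SE 0.24, adjusted p = 0.0747) at 16 weeks. In the mean of the weeks, Tgfb3 was 1.37-fold lower (log2 fold change -0.46, 95% interval -0.74 to -0.17, adjusted p = 0.0229), with an exact two-sided permutation p = 0.00925. That call was lost when control 16 weeks replicate 1 (adjusted p = 0.0534), replicate 3 of the 2-week controls (0.0548) or replicate 1 of the 8-week SCI bladders (0.0531) was left out, with log2 fold changes from -0.40 to -0.39.

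Among SCI bladders alone, Tgfb3 was lower at 16 weeks than at 2 weeks in every library, 45.8 to 55.0 against 56.8 to 79.5 CPM, as in 6.59% of genes tested, but this difference was not called (log2 -0.37, adjusted p = 1.00). It ranged from -0.47 to -0.21 when each library was left out, the latter without SCI 2 weeks replicate 2. The change in the SCI difference of Tgfb3 between 2 and 8 weeks was not called either (log2 -0.69, adjusted p = 0.582).

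Tgfb1, the ligand most often measured in fibrosis, was lower after SCI at 16 weeks and overlapped between the arms at every week. Controls held 50.8, 52.7 and 59.1 CPM at 2 weeks and 57.3, 56.6 and 54.1 CPM at 8 weeks. SCI libraries held 50.0, 53.4 and 52.9 CPM at 2 weeks and 51.3, 61.5 and 60.4 CPM at 8 weeks. At both weeks the groups overlapped, with log2 fold changes of -0.06 (95% interval -0.33 to 0.21, adjusted p = 0.991) and 0.04 (-0.22 to 0.31, adjusted p = 0.861). At 16 weeks, controls held 82.0, 52.6 and 72.7 CPM and SCI libraries 57.0, 46.2 and 47.9 CPM. The highest SCI library lay above the lowest control, and the difference was called (log2 fold change -0.46, SE 0.13, adjusted p = 0.0453). The 16-week control mean, 69.1 ± 15.0 CPM, was the highest of the 7 groups, and the 0-week controls came next at 62.1 ± 3.93 CPM. Within controls, neither the log2 difference of 0.31 between 16 and 8 weeks (adjusted p = 0.460) nor that of 0.35 between 16 and 2 weeks (adjusted p = 0.120) was called. In the mean of the weeks the difference was -0.16 (95% interval -0.31 to -0.003, adjusted p = 0.126, exact two-sided permutation p = 0.142).

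The 16-week call of Tgfb1 lay close to the threshold and was kept in 8 of 21 fits that each left out 1 library. Without control 16 weeks replicate 1 the log2 fold change was -0.32 (adjusted p = 0.201), and without control 16 weeks replicate 3 the adjusted p was 0.0932. It was 0.09, 0.112 and 0.132 without SCI 16 weeks replicates 1, 2 and 3, with log2 fold changes of -0.56, -0.40 and -0.43. Leaving out any control of 2 or 8 weeks, SCI 2 weeks replicate 1 or SCI 8 weeks replicate 3, none of which enters the 16-week means, gave adjusted p from 0.0505 to 0.0599. Without control 16 weeks replicate 2, Tgfb1 was called lower after SCI in the mean of the weeks (-0.21, adjusted p = 0.0186) and higher in controls at 16 than at 2 weeks (0.51, adjusted p = 0.0227) and at 8 weeks (0.47, adjusted p = 0.0483). Without control 16 weeks replicate 1 these control differences were 0.20 (adjusted p = 0.409) and 0.16 (adjusted p = 0.839).

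**Figure D2:**
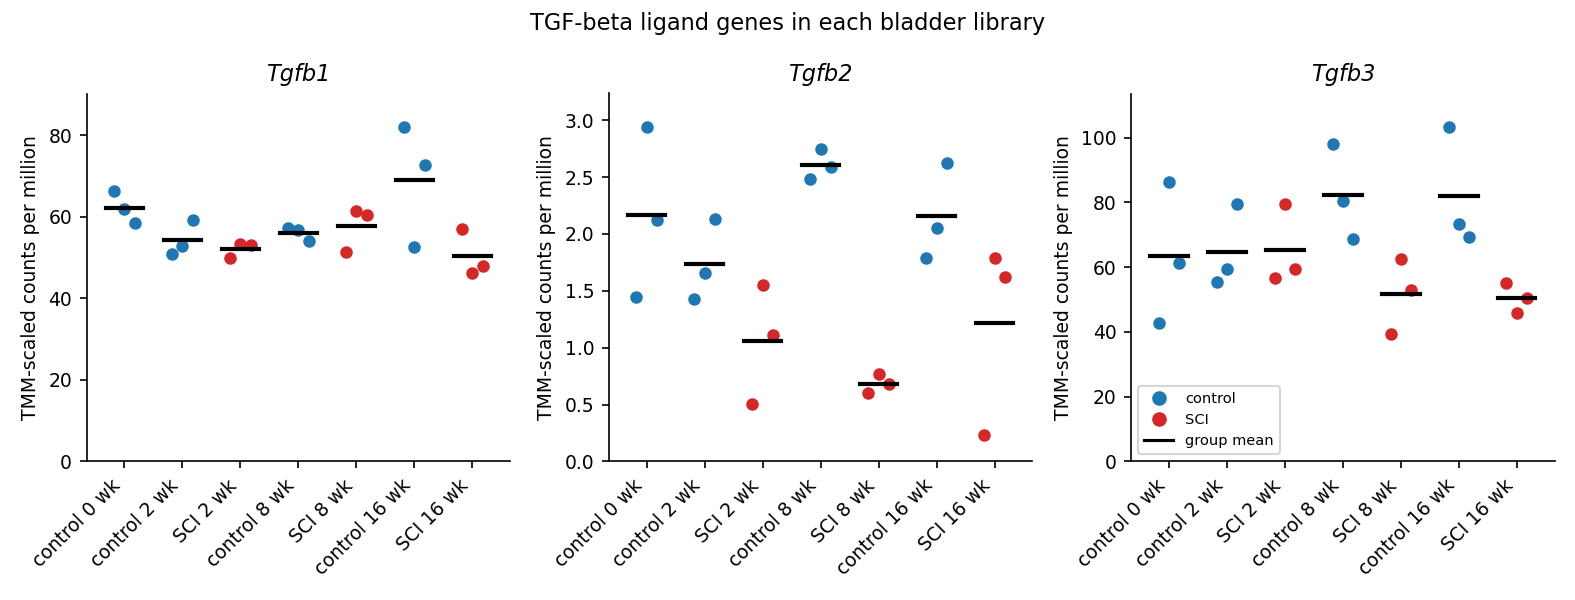
TMM-scaled CPM of Tgfb1, Tgfb2 and Tgfb3 (vertical axes, each from 0) in the 21 libraries, arranged by group, with controls in blue, SCI in red and the group mean as a black line. The SCI libraries of 8 weeks lie below all 3 controls of that week for Tgfb2 and Tgfb3, and Tgfb1 overlaps between SCI and control at every week.

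The balance among the ligands was compared as ratios of read counts within a library, which do not depend on how libraries are scaled. The ratio of Tgfb2 to Tgfb1 reads was 0.0443 to 0.0495 in the 8-week controls and 0.0121 to 0.0133 in the 8-week SCI libraries, with no overlap. At 2 weeks it was 0.0289 to 0.0368 in controls and 0.0111 to 0.0301 after SCI, and at 16 weeks 0.0222 to 0.0400 and 0.00513 to 0.0398, so that the groups overlapped at both. The weekly log2 differences were -0.74, -1.91 and -0.73. The 16-week difference rested on SCI 16 weeks replicate 1 and was 0.22, in the other direction, without it, and over the other libraries left out at that week it ranged from -1.26 to -0.57. At 2 weeks it ranged from -1.06 to -0.34 and at 8 weeks from -1.96 to -1.88. Over the weeks it was 2.18-fold lower after SCI (log2 -1.13, exact two-sided permutation p = 0.0095, adjusted p = 0.0375 over 4 ratios). The ratio of Tgfb3 to Tgfb1 reads was 1.27 to 1.71 in the 8-week controls and 0.768 to 1.02 after SCI at 8 weeks, again with no overlap. At 2 weeks it was 1.09 to 1.34 in controls and 1.13 to 1.49 after SCI, and at 16 weeks 0.954 to 1.40 and 0.965 to 1.05, and the groups overlapped at both. Over the weeks it was 1.23-fold lower after SCI (log2 -0.30, exact permutation p = 0.0323, adjusted p = 0.043), with weekly differences of 0.07, -0.72 and -0.25, of which the first was -0.06 without SCI 2 weeks replicate 2 and the last -0.13 without replicate 2 and -0.405 without replicate 3 of the 16-week controls. The ratio of Tgfb3 to Tgfb2 reads, which follows from the ratios above, was 1.77-fold higher (log2 0.83, exact permutation p = 0.0188, adjusted p = 0.0375). Its weekly log2 differences were 0.81, 1.18 and 0.49. At 16 weeks it was 25.9 to 56.7 in controls and 24.9 to 188.2 after SCI, so the groups overlapped. The 16-week difference was -0.44 without SCI 16 weeks replicate 1, and from 0.23 to 1.02 over the other libraries left out at that week.

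The ratio of Tgfb2 to Tgfb1 kept an exact permutation p between 0.00325 and 0.023 when each library was left out. The unadjusted permutation p of Tgfb3 to Tgfb1 rose to between 0.054 and 0.0675 when 1 of 6 libraries was left out, namely replicate 3 of the 2-week controls, replicate 1 of the 8-week controls, replicate 2 of the 16-week controls, replicates 1 and 3 of the 2-week SCI bladders and replicate 1 of the 8-week SCI bladders. That of Tgfb3 to Tgfb2 rose to 0.0655 without SCI 16 weeks replicate 1, where the log2 difference was 0.52. It was 0.0535 and 0.0733 when replicates 2 and 3 of the 16-week controls were left out in turn.

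**Figure D3:**
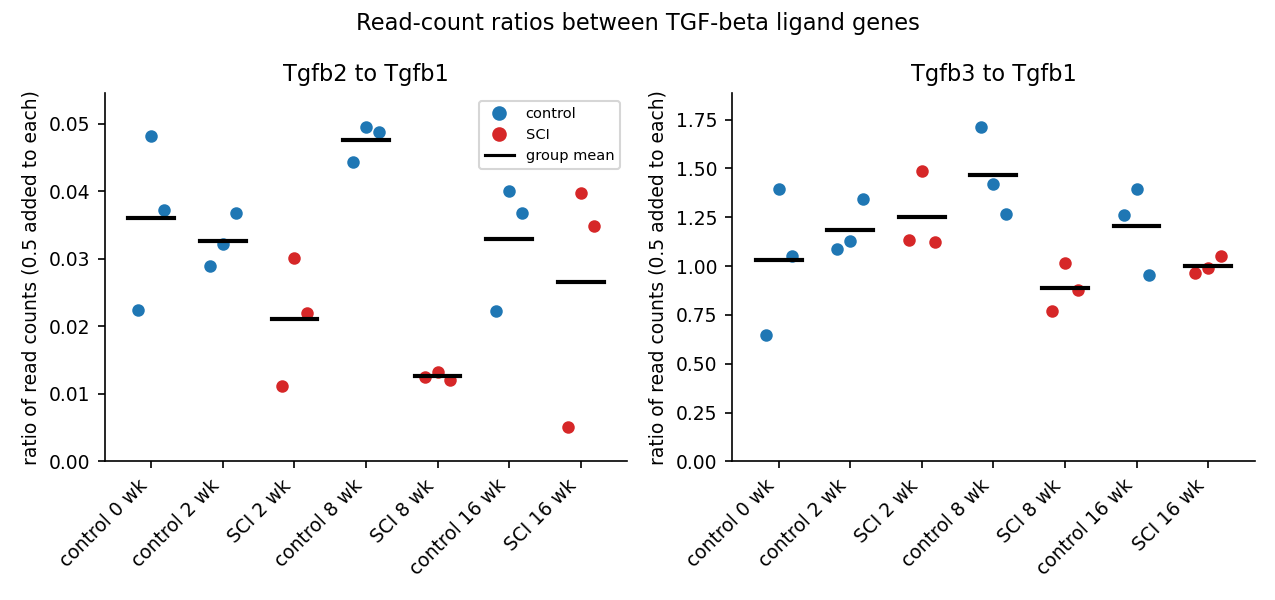
Ratio of Tgfb2 to Tgfb1 reads and of Tgfb3 to Tgfb1 reads (vertical axes, from 0, with 0.5 added to each count) in each library by group, controls in blue and SCI in red, with group means as black lines. The 8-week SCI libraries, at 0.0121 to 0.0133 and 0.768 to 1.02, lie below all 8-week controls in both panels.

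Ccn2 varied widely between animals of the same group, and no SCI difference was called. The 0-week controls held 10.8, 21.6 and 22.97 CPM and the 2-week controls 22.7, 25.4 and 82.2 CPM. The 8-week controls held 455.8, 110.4 and 27.2 CPM, a 16.7-fold range within 1 group, and the 16-week controls 36.5, 39.7 and 54.6 CPM. SCI libraries held 64.0, 51.9 and 148.2 CPM at 2 weeks, 26.0, 59.8 and 33.0 CPM at 8 weeks and 42.6, 49.6 and 103.1 CPM at 16 weeks. SCI and control overlapped at every week, and the highest value of all, 455.8 CPM, was in an uninjured animal. The log2 fold changes of SCI over control were 1.03 (SE 0.72, adjusted p = 0.903) at 2 weeks, -2.33 (SE 0.74, adjusted p = 0.0587) at 8 weeks and 0.58 (SE 0.72, adjusted p = 0.638) at 16 weeks. In the mean of the weeks the difference was -0.24 (95% interval -1.11 to 0.63, adjusted p = 0.706). The mean difference of log2 CPM, in which a high library weighs less, was 0.01 (exact two-sided permutation p = 0.986).

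The 8-week difference of Ccn2 moved with single libraries and settings. Without control 8 weeks replicate 1, the library of 455.8 CPM, it was -0.80 (adjusted p = 0.454). It was called without replicate 3 of the 8-week controls (-2.84, adjusted p = 0.0254), replicate 2 of the 8-week SCI bladders (adjusted p = 0.0418) or replicate 2 of the 0-week controls (adjusted p = 0.0477), and with DESeq2 (adjusted p = 0.0258). It was called in 9 of 31 alternatives in all. The 2-week difference of Ccn2 was 0.42 without SCI 2 weeks replicate 3 and 1.87 (unadjusted p = 0.0335, adjusted p = 0.940) when replicate 3 of the 2-week controls was left out, and the 16-week difference was 0.08 without SCI 16 weeks replicate 3.

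Ccn1 had the same high library. Controls held 8.68, 23.4 and 31.1 CPM at 0 weeks, 12.8, 25.6 and 105.2 CPM at 2 weeks, 630.2, 40.5 and 55.1 CPM at 8 weeks and 30.2, 35.6 and 70.6 CPM at 16 weeks. SCI libraries held 56.7, 33.6 and 52.7 CPM at 2 weeks, 32.2, 60.3 and 41.6 CPM at 8 weeks and 20.5, 48.8 and 138.5 CPM at 16 weeks. Control 8 weeks replicate 1 was 11.4-fold above the next library of its group, and SCI and control overlapped at every week. The log2 fold changes were 0.003 (SE 0.90, adjusted p = 1.00), -2.44 (SE 0.93, adjusted p = 0.0979) and 0.61 (SE 0.90, adjusted p = 0.700) at 2, 8 and 16 weeks, and -0.61 (95% interval -1.70 to 0.48, adjusted p = 0.413) in their mean, where the mean difference of log2 CPM was -0.19 (exact two-sided permutation p = 0.775). Without control 8 weeks replicate 1 the 8-week difference was -0.10 (adjusted p = 0.952). That library had 24 genes at least 4-fold above both others of its group, and over the 21 libraries this number ranged from 2 to 28.

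**Figure D4:**
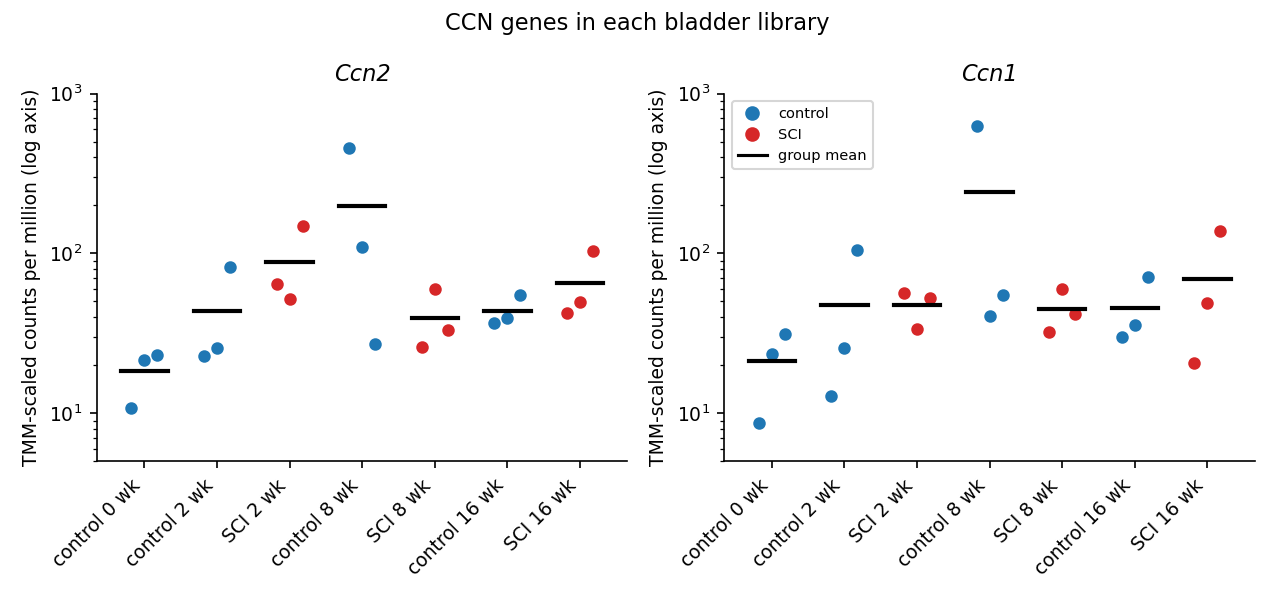
TMM-scaled CPM of Ccn2 and Ccn1 (vertical axes, logarithmic) in the 21 libraries by group, controls in blue, SCI in red and group means as black lines. Control 8 weeks replicate 1 stands at 455.8 CPM for Ccn2 and 630.2 CPM for Ccn1, and SCI and control overlap at every week.

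The change of the SCI difference between weeks and the course within each arm were tested for the 5 genes in the same fit. Between 8 and 2 weeks, 0 of 5 changes in the SCI difference were called, against 0.0197% of genes tested, and 1 had an unadjusted p under 0.05, against 8.59%, that of Ccn2 (log2 -3.35, unadjusted p = 0.00441, adjusted p = 0.439). Between 16 and 8 weeks 0 of 5 were called, against 0%, and 3 had an unadjusted p under 0.05, against 6.63%, with a log2 change of 2.91 for Ccn2 (unadjusted p = 0.0111, adjusted p = 0.625), 3.05 for Ccn1 (adjusted p = 0.702) and -0.50 for Tgfb1 (adjusted p = 0.625). Between 16 and 2 weeks 0 of 5 were called, against 0%, and 2 had an unadjusted p under 0.05, against 7.75%. Without control 8 weeks replicate 1, the change of Ccn2 was -1.83 (unadjusted p = 0.0457) between 8 and 2 weeks and 1.39 (0.120) between 16 and 8 weeks. That of Ccn1 was then 0.72 (0.487) between 16 and 8 weeks, so neither CCN gene met the unadjusted threshold there, while Tgfb1 did (-0.52, unadjusted p = 0.0193).

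Within controls, 0 of 5 genes were called between 2 and 0 weeks (0% of genes tested), 8 and 2 weeks (0%), 16 and 8 weeks (0.0788%) or 16 and 2 weeks (0.407%). Within SCI bladders, 0 of 5 were called between 8 and 2 weeks (0.0131%), 16 and 8 weeks (0%) or 16 and 2 weeks (0.046%). Those with an unadjusted p under 0.05 in controls were 0 between 2 and 0 weeks (13.4% of genes), 2 between 8 and 2 weeks (18.9%), 3 between 16 and 8 weeks (9.5%) and 1 between 16 and 2 weeks (23.7%). In SCI bladders they were 0 between 8 and 2 weeks (4.49%), between 16 and 8 weeks (1.81%) and between 16 and 2 weeks (5.23%). DESeq2 called 0 of 5 in each of these comparisons too. The CCN genes of the controls differed by 2.19 for Ccn2 and 2.35 for Ccn1 between 8 and 2 weeks (log2, adjusted p = 0.159 and 0.195) and by -2.19 and -2.42 between 16 and 8 weeks (adjusted p = 0.325 and 0.418). Without control 8 weeks replicate 1 the former were 0.67 for Ccn2 and 0.0002 for Ccn1 (unadjusted p = 0.303 and 0.9998), and the latter -0.66 and -0.07 (unadjusted p = 0.308 and 0.924). Neither CCN gene then counted among those with an unadjusted p under 0.05, while Tgfb1 still did between 16 and 8 weeks (0.33, unadjusted p = 0.0421). Both CCN genes had their lowest mean in the 0-week controls, at 18.5 ± 6.67 CPM for Ccn2 and 21.1 ± 11.4 CPM for Ccn1. The next group in order, SCI 8 weeks, at 39.6 ± 17.9 and 44.7 ± 14.3 CPM, did not overlap it, as in 8.2% of genes tested. Every other pair of neighbours in the order of the 7 groups overlapped, for each of the 5 genes.

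The spread between animals of a group separated the genes as well. The pooled SD within groups of log2 CPM was 0.161 for Tgfb1, 0.315 for Tgfb3 and 0.580 for Tgfb2, and the median over genes tested was 0.219. It was 1.01 for Ccn2 and 1.23 for Ccn1, and 114 (0.749%) and 45 (0.296%) of the genes tested had a larger one. Without control 8 weeks replicate 1 these SDs were 0.783 and 0.962, still exceeded by 2.14% and 0.893% of genes only. In both CCN genes the SD was larger in controls, 1.18 and 1.45, than in SCI libraries, 0.702 and 0.868, and for Tgfb2 it was larger in SCI libraries, 0.815 against 0.299. The control SDs were 0.847 for Ccn2 and 1.04 for Ccn1 without control 8 weeks replicate 1, and without SCI 16 weeks replicate 1 the SCI SD was 0.435 for Tgfb2 and 0.612 for Ccn1. These SDs were not compared by a test, and that of Tgfb2 includes the counting error of a few reads.

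Ccn1 and Ccn2 varied together across the libraries. Over 21 libraries their log2 CPM had a Pearson r of 0.86 and a Spearman rho of 0.79, and the r of deviations from group means was 0.83. Without the libraries farthest from the median of Ccn2, control 8 weeks replicate 1 and control 0 weeks replicate 1, r was 0.67. Ranked by r against Ccn2, Ccn1 was the third of 15224 genes, and ranked against Ccn1, Ccn2 was at place 4. The ratio of Ccn1 to Ccn2 reads was 0.87-fold that of controls after SCI (log2 -0.20, exact two-sided permutation p = 0.564), and from -0.44 without control 8 weeks replicate 2 (exact permutation p = 0.0855) to -0.03 without replicate 3 of that group (exact permutation p = 0.926) when each library was left out. Among the ligands, r was 0.55 between Tgfb2 and Tgfb3, 0.47 between Tgfb1 and Tgfb3 and 0.19 between Tgfb1 and Tgfb2, and within groups 0.22, 0.44 and -0.23. Tgfb1 had an r of -0.17 with Ccn2 and -0.12 with Ccn1, and within groups 0.16 and 0.03. For Tgfb2 the r with Ccn2 and Ccn1 was 0.10 and 0.23 (within groups 0.27 and 0.40), and for Tgfb3 0.40 and 0.37 (within groups 0.47 and 0.39). These values describe libraries that share groups and scaling, and are given without a test.

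**Figure D5:**
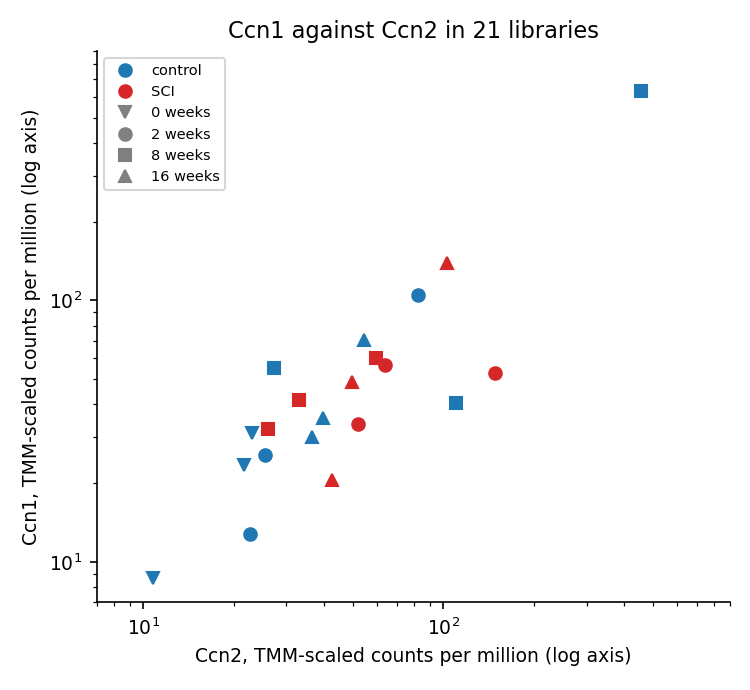
Ccn1 against Ccn2 in TMM-scaled CPM (both axes logarithmic), 1 point for each of 21 libraries, controls in blue and SCI in red, with the week by shape. The points run along a diagonal (r of 0.86 on the log2 scale), from control 0 weeks replicate 1 at 10.8 and 8.68 CPM to control 8 weeks replicate 1 at 455.8 and 630.2 CPM.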

How the data were processed

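The deposited values are raw read counts per Ensembl gene, which the authors made from stranded, ribosomal RNA-depleted libraries read as 51 bp pairs and summed over 2 flow cells. The submitters' processing notes name FastQC 0.11.9, MultiQC 1.13, Trim Galore 0.6.10, STAR 2.7.10a, SAMtools 1.17, featureCounts 2.0.3 and build Rnor_6.0; the annotation release and the strand setting of counting are not given in the sources used here, so antisense or overlapping genes may share reads. Counts of all 21 libraries were fitted with edgeR 4.0.16 in R 4.3.3 (filterByExpr, TMM factors 0.903 to 1.09, 7 group means, quasi-likelihood F test, common biological coefficient of variation 0.160), and p-values were adjusted by Benjamini-Hochberg over 15225 genes. Permutations used log2 CPM with a prior count of 2, and ratios added 0.5 to each count. Replicates of a group differed beyond counting noise (chi-square per degree of freedom 7.22 to 59.9). The code was tested on simulated data. Alternatives were DESeq2 1.42.0, the likelihood ratio test, other scalings, filters, groups and thresholds, the replicate block, and each library left out; those of the permutation of levels, of the weekly ratios, of the SD by arm and of the median over the 5 genes were chosen after seeing the data. The genes and lists were chosen with earlier results of these data known. The rule for named genes took the 5 genes, further genes of marker and pathway lists and those most alike in pattern. As 0 Ensembl identifiers matched the RefSeq table, only the 5 are named and the lists were not run. Upstream sequences are RefSeq's (GRCr8), matched by symbol for 5 of 5 genes; the counts' coordinates were not used.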

Additional observations from a re-analysis of the deposited data

How the results depend on the processing

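Over 44 results of the 5 genes, 1164 of 1260 values under alternatives kept their direction and side of the threshold, and 28 changed sign, none of a called result. Tgfb2 in the mean of the weeks was called in all 31 alternatives (adjusted p 0.000133 to 0.0165), Tgfb2 at 8 weeks in 28 (0.00117 to 0.121), Tgfb3 in the mean of the weeks in 27 (0.00822 to 0.0548) and Tgfb1 at 16 weeks in 14 (0.00526 to 0.201). The Tgfb1 call was lost with library size only (adjusted p = 0.105), no filter (0.0546) and only the groups compared (0.103). Ccn2 at 8 weeks was called with the likelihood ratio test (0.0184), library size only (0.0436), no filter (0.0491) and without the 0-week controls (0.0497). Tgfb3 at 8 and 16 weeks was called with DESeq2 (0.0483 and 0.0417), the likelihood ratio test (0.0464 and 0.0410) and without the 0-week controls (0.0337 and 0.0339), at 8 weeks also without SCI 8 weeks replicate 2 (0.0387) and at both without control 0 weeks replicate 1 (0.0432 and 0.0416) or 2 (0.0386 and 0.0395), and at 16 weeks with only the groups compared (0.0259).

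Of the 5 genes, the number called at 8 weeks was 3 with DESeq2 (1960 of all genes), the likelihood ratio test (1856) and without the 0-week controls (2466). It was 2 with library size only (3088 of all genes) and no filter (1085). At 16 weeks it was 2 with DESeq2 (1675 of all genes), the likelihood ratio test (1553) and without the 0-week controls (2086), and 0 with library size only (770) and no filter (722). Under a rule of unadjusted p below 0.05 and a log2 difference of 0.5 or more in size, the number of the 5 genes was 4 at 8 weeks, against 2390 of the 15225 genes tested. In the mean of the weeks it was 1, against 1682. It was 2 in controls between 8 and 2 weeks, 2 in controls between 16 and 8 weeks, and 1, 3 and 1 for the SCI difference between 8 and 2, 16 and 8, and 16 and 2 weeks. For these changes between weeks the number over all genes under this rule was not taken, so they stand without a background. Leaving out each library gave 0 to 3 genes at 8 weeks, 0 to 2 at 16 weeks, 1 to 3 in the mean of the weeks, and 0 to 1 in controls between 16 and 8 weeks and between 16 and 2 weeks. Over all genes, the number called was 0 at 2 weeks (0 to 69 under the other settings with an adjusted p, 0 to 9 without single libraries), 1281 at 8 weeks (322 to 3088, 32 to 2585), 855 at 16 weeks (722 to 2105, 16 to 1729) and 3454 in the mean of the weeks (3035 to 4924, 2442 to 4368). The unadjusted rule gave 620, 2390, 2287 and 1682, so the shares of genes called that stand beside the 5 genes move as well.

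All sign changes were in differences that were not called. Ccn1 at 2 weeks was -0.0028 with DESeq2, -0.0057 with the likelihood ratio test and -0.0038 with no filter. Leaving out each library gave ranges for Ccn1 of -0.45 to 1.31 (2 weeks), -0.38 to 1.07 (16 weeks) and -0.94 to 0.18 (mean of the weeks), for Ccn2 in the mean of the weeks of -0.44 to 0.27, for Tgfb1 of -0.10 to 0.0084 (2 weeks) and -0.0021 to 0.13 (8 weeks), and for Tgfb3 at 2 weeks of -0.15 to 0.19. In the permutation of levels the range was -0.44 to 0.22 for Ccn1 and -0.33 to 0.35 for Ccn2.

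Replicate numbers did not pair the libraries, since deviations of libraries with the same number correlated from -0.135 to 0.127. With the number as a replicate block, 1783 genes were called at 8 weeks and 1307 at 16 weeks, Tgfb2 was -1.94 (adjusted p = 0.0100) at 8 weeks and -0.90 (0.128) at 16 weeks, and the number of the 5 genes called stayed at 0, 1, 1 and 2 at 2, 8 and 16 weeks and in their mean.

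With 3 libraries a group, a permutation within 1 week cannot give a two-sided p below 0.1. Tgfb2 rested on 2 to 31 reads a library, and the part of counting error in its spread was not tested. Control 8 weeks replicate 1 decides the 8-week values of Ccn2 and Ccn1.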
